A study of Mus musculus with 9 samples.

Results

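Whole-liver transcript sums were compared between 3 mice that had received the vector AAVrh.10mCherry (Mouse3, Mouse6 and Mouse9) and 3 that had received AAVrh.10Null (Mouse2, Mouse5 and Mouse8). All were male C57BL/6 mice aged 8 weeks, the vectors were given into a vein, and the 6 livers are 6 of the 9 in the series. The other 3 livers (Mouse1, Mouse4 and Mouse7) came from mice given PBS and are shown beside the comparison without entering it. Liver cells were dissociated and captured by Drop-seq, in which barcoded beads mark the transcripts of single droplets and each captured molecule is counted as a unique molecular identifier (UMI). For every gene, the UMIs of all barcodes with at least 200 genes were added up per liver, so that the liver is the replicate. The comparison asks how livers given a vector with an expressed reporter differ from livers given the AAVrh.10Null vector. The sources used here do not state the dose, the promoter, what the AAVrh.10Null genome carries or the interval between injection and harvest. The labels name 1 mouse per library, and p-values below measure the spread between these livers unless stated otherwise.

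Adeno-associated virus (AAV) is a small parvovirus whose particles, stripped of viral genes, are used to carry genes to the liver. AAVrh.10 is a serotype first isolated from rhesus macaque, and hepatocytes are among the cells it enters most readily after intravenous delivery. mCherry is a red fluorescent protein used as a reporter. Hepatocytes make most plasma proteins, many of them under the pulsed growth hormone signal of male mice, and they answer protein stress, DNA damage and interferon with well-known gene programmes, which is why those groups of genes are described below.

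The sums held 5931276, 5054278 and 8585136 UMIs in the AAVrh.10mCherry livers of Mouse3, Mouse6 and Mouse9, and 5669206, 4234127 and 6729384 in the AAVrh.10Null livers of Mouse2, Mouse5 and Mouse8. Levels below are counts scaled to 1000000 UMIs with TMM factors (CPM), and they are listed in that order of mice throughout. Library measures differed within both groups. Mitochondrially encoded RNA was 17.8% of UMIs in Mouse6 and 17.3% in Mouse8, against 6.27% to 10.2% in the other 4 livers. Mouse6 also had the lowest median correlation with the other livers, 0.93 against 0.951 to 0.961. Malat1, a nuclear long RNA, took 2.30% and 1.5% of the UMIs of Mouse2 and Mouse8 and 0.60% to 1.03% of the others. Barcodes ending in an undetermined base numbered 7 and 20 in Mouse2 and Mouse8 and 1056 to 1735 in the other 4 libraries. That split leaves Mouse5 as the only AAVrh.10Null liver beside the 3 AAVrh.10mCherry livers, so results are also given for Mouse5 alone against those 3. Over 12 library measures compared between the groups, the smallest exact permutation p was 0.1 (adjusted 0.6), and 3 against 3 livers allow none smaller. It belonged to the shares of barcodes with mCherry and with Igkv3-12, described below. The next smallest exact permutation p was 0.2, for median genes per barcode and the ribosomal protein share. Any 2 libraries shared few barcodes, at most 6 in any pair.

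The reporter transcript marked the labelled group. mCherry was at 8048, 5757 and 1701 CPM in the AAVrh.10mCherry livers and at 0, 24 and 0.164 CPM in the AAVrh.10Null livers. Every AAVrh.10mCherry liver was above every AAVrh.10Null liver, with Mouse9 the lowest of its group. Among the AAVrh.10Null livers, 96 of the 97 UMIs were in Mouse5. At least 1 mCherry UMI was found in 99.9%, 97.3% and 86.4% of the barcodes of the AAVrh.10mCherry livers and in 2.30% of the barcodes of Mouse5. Pooled over the livers of a group, the level was 822-fold higher with AAVrh.10mCherry. The fitted log2 change was 9.41 (SE 1.62), yet its adjusted p was 0.466 in edgeR's quasi-likelihood test. Without Mouse5 the adjusted p was 0.0142, and DESeq2 on all 6 livers gave 0.0271.

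Igkv3-12 separated the groups in the opposite direction and was the only gene to pass the test. It belongs to the variable segments from which B cells assemble kappa light chains, and lies at chr6:70518250-70518849 on the plus strand of mm10, where no other annotated gene overlaps it. It was at 122, 262 and 257 CPM in the AAVrh.10Null livers and at 0, 2.78 and 0 CPM in the AAVrh.10mCherry livers. All 3 AAVrh.10Null livers were high, and of the other 6 livers in the series only Mouse6 held any UMIs, 15 of them. Between the groups, Igkv3-12 was higher in the AAVrh.10Null livers, with a log2 change of -8.05 (SE 0.894, adjusted p = 0.0467 in edgeR's test). Its pooled level was 260-fold higher with AAVrh.10Null. The 18 other kappa variable segments listed together held 11, 12 and 13 UMIs in the AAVrh.10Null livers and 0, 1 and 2 in the AAVrh.10mCherry livers. Igkc, the constant part that a kappa light chain needs, held 70, 18 and 54 UMIs beside 704, 1048 and 1561 UMIs of Igkv3-12 in the AAVrh.10Null livers. In the AAVrh.10mCherry livers Igkc held 30, 29 and 21 UMIs, and its levels overlapped between groups (log2 change -1.05). Ighm, the IgM heavy chain, held 50, 17 and 28 UMIs against 29, 10 and 19, and also overlapped (log2 change -1.0). Jchain, a plasma cell gene, held 3, 2 and 5 UMIs against 2, 4 and 10. Igkv3-12, Igkc and Ighm were the only 3 of 14 listed immunoglobulin genes that passed the filter on low counts, and all 3 were lower at unadjusted p under 0.05. At least 1 Igkv3-12 UMI was found in 9.23%, 22.9% and 18.4% of the barcodes of the AAVrh.10Null livers, with at most 11, 4 and 13 in any barcode. The PBS livers of Mouse1, Mouse4 and Mouse7 held 50, 110 and 111 UMIs of Igkc and 0 of Igkv3-12. Summed B cell markers were at 2.54, 18.7 and 28.3 CPM there, and at 10.2, 4.75 and 8.22 CPM in the AAVrh.10Null livers. The part of B cell or plasma cell RNA in the result for Igkv3-12 was not tested. Leaving out Mouse2, Mouse3, Mouse5, Mouse8 or Mouse9 ended the call, with adjusted p-values in edgeR's test of 0.0893, 0.220, 0.0768, 0.270 and 0.244, and without Mouse6 it was 2.63e-05.

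**Figure D1:**
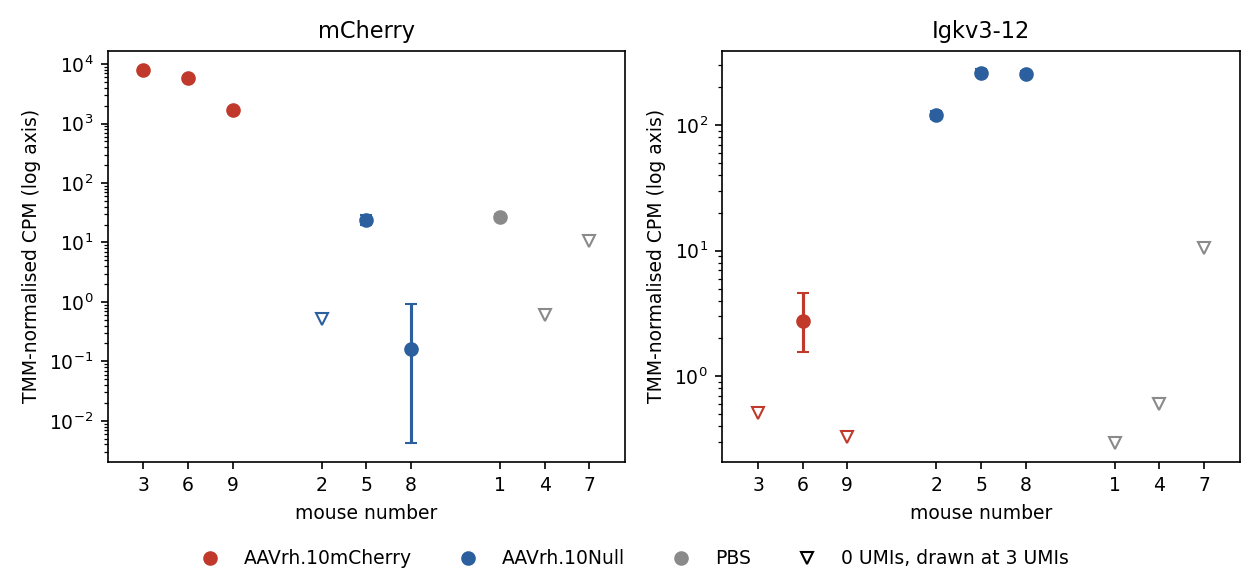
Level of mCherry and Igkv3-12 in each of the 9 livers, as TMM-normalised CPM on a log axis. Points carry exact 95% Poisson intervals, which cover counting error only, and open triangles stand for 0 UMIs and are drawn at the level of 3 UMIs. The AAVrh.10mCherry livers lie between 1701 and 8048 CPM for mCherry, and the AAVrh.10Null livers between 122 and 262 CPM for Igkv3-12.

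Beyond that segment, no host gene of the 10924 genes tested passed an adjusted p of 0.05 in either direction. Called genes were 0.00915% of those tested, all of them lower, and 0% were called higher. At an unadjusted p under 0.05 there were 1025 genes (9.38%), where chance alone gives 546. Of these, 370 were higher in the AAVrh.10mCherry livers (3.39% of genes tested) and 655 were lower (6.00%). Livers of the 2 groups did not overlap for 721 genes that were higher (6.60%) and 929 that were lower (8.50%), together 15.1%. DESeq2 called 8 genes higher and 19 lower on the same counts, and limma-voom called 0 in both directions. With library totals in place of TMM, the median change of all genes moved from -0.02 to 0.10 on the log2 scale, and the split at unadjusted p under 0.05 became 788 higher and 304 lower. Groups of genes are therefore described by the number of members above or below 0, the members at unadjusted p under 0.05 or without overlap between groups, and the median log2 change, each to be read against these shares of all genes. Where a liver is left out, members are to be read against that fit's own totals, over 11194 to 11397 genes. Genes higher and lower at unadjusted p under 0.05 numbered 264 and 410 without Mouse2, 588 and 575 without Mouse3, and 634 and 884 without Mouse5. They numbered 254 and 658 without Mouse6, 267 and 400 without Mouse8, and 245 and 479 without Mouse9. With library totals, the small negative medians of the interferon, MHC class I, periportal, cholesterol, fasting, clock and iron lists turned positive, as did those of the NF-kB and oxidative phosphorylation lists, which also turned with DESeq2's factors. No gene named below passed the adjusted threshold in edgeR's test on these livers, and "lower" or "higher" refers to the measured levels only. DESeq2 on the same 6 livers passed 14 of the host genes chosen by the naming rule besides Igkv3-12: AI480526, Snhg20, C4a, Sel1l3, Mst1, C2, C4b, Mlxipl and Gm26917 as lower, and Fam107b, Ugt3a1, Dnajb1, Cdkn1a and Cyp2c38 as higher.

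**Figure D2:**
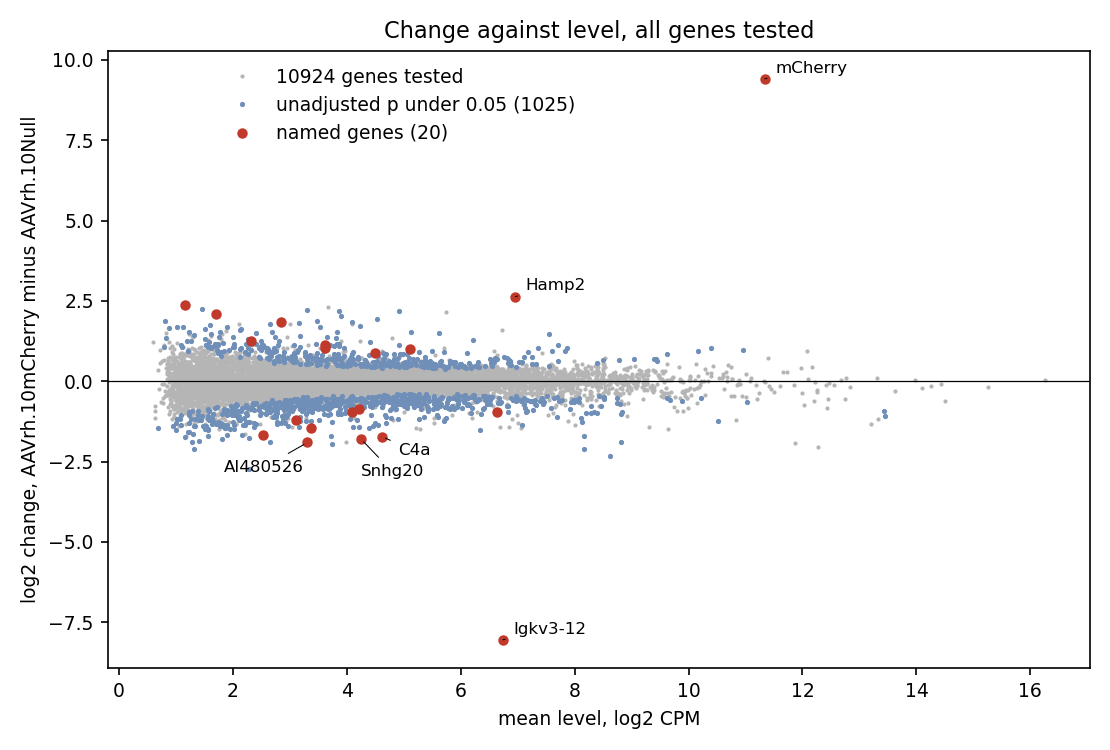
Log2 change between the AAVrh.10mCherry and AAVrh.10Null livers against mean level (log2 CPM) for the 10924 genes tested. Blue points have an unadjusted p under 0.05 and red points are the 10 genes of smallest p in each direction, mCherry and Igkv3-12 among them. mCherry and Igkv3-12 lie at 9.41 and -8.05, away from all other genes.

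Of the genes lower in the AAVrh.10mCherry livers, AI480526 and Snhg20 came closest to the threshold. AI480526 is a long noncoding RNA gene at chr5:123133723-123141666 on the minus strand of mm10, overlapped by annotated genes on both strands. Its reads cannot be told apart from those of the plus-strand genes without a known strand setting. For Gm26745, on the same minus strand, a strand setting alone would not separate them. AI480526 was at 4.42, 3.33 and 4.41 CPM in the AAVrh.10mCherry livers and at 13.8, 13.8 and 18.4 CPM in the AAVrh.10Null livers (log2 change -1.91, SE 0.250, adjusted p = 0.10 in edgeR's test). Snhg20, the host RNA of a small nucleolar RNA at chr11:117076008-117078955 on the plus strand, was at 10.0, 7.59 and 7.61 CPM against 31.8, 20.3 and 35.2 CPM (log2 change -1.80, SE 0.254, adjusted p = 0.128 in the same edgeR test). For both RNAs the groups were far apart, and the PBS livers, at 5.08 to 7.07 CPM for AI480526 and 6.83 to 10.6 CPM for Snhg20, lay near the AAVrh.10mCherry livers. The upper end of each range is that of Mouse7, which held only 2 UMIs of AI480526 and 3 of Snhg20. Both RNAs passed in the edgeR fit on all 9 livers and with barcodes of at least 500 genes, each with 3 genes called lower. They also passed in DESeq2 and without the filter on low counts, a fit whose p-values are limited as described below.

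The other genes of smallest p on that side were Wdfy1, Mst1, Mogs, Klhdc8b, Sel1l3, C4a and 6430590A07Rik, all with an adjusted p of 0.482 and no overlap between groups. Mst1 encodes the hepatocyte-made ligand macrophage-stimulating protein. It was at 66.0, 68.9 and 68.2 CPM in the AAVrh.10mCherry livers and at 133, 104 and 155 CPM in the AAVrh.10Null livers. Mogs, the glucosidase that trims the outermost glucose from N-glycans, was at 10.2, 12.4 and 11.6 CPM against 25.4, 20.3 and 21.2 CPM. Wdfy1, an endosomal adaptor of toll-like receptor signalling, was at 13.3, 13.1 and 12.6 CPM against 22.6, 26.0 and 22.2 CPM. In each of these 3 genes the AAVrh.10mCherry livers were nearly level with each other. The deeper PBS livers, Mouse1 and Mouse4, held 78.7 and 66.8 CPM of Mst1, 10.4 and 16.2 CPM of Mogs and 8.49 and 10.2 CPM of Wdfy1, so they too were below every AAVrh.10Null liver. The PBS liver of Mouse7 had only 291338 UMIs, and 3 UMIs equal 10.6 CPM there, so its values for weak genes are imprecise.

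On the higher side, the genes of smallest p besides mCherry were Fam107b, Plk2, Hamp2, Enc1, Egln3, Ugt3a1, Btg1, Tmem47 and Nupl1, all with an adjusted p of 0.482. Plk2, a polo-like kinase induced by p53, was at 16.0, 15.7 and 16.2 CPM in the AAVrh.10mCherry livers and at 6.57, 8.25 and 8.71 CPM in the AAVrh.10Null livers. Egln3, an oxygen-sensing prolyl hydroxylase and a target of hypoxia-inducible factor, was at 16.0, 17.4 and 15.2 CPM against 5.53, 10.5 and 6.41 CPM. Btg1, an antiproliferative gene, was at 27.5, 26.5 and 31.2 CPM against 11.9, 16.8 and 18.1 CPM. The groups did not overlap for any of the 9 genes. For Plk2 the deeper PBS livers lay on both sides, at 16.5 CPM in Mouse1 and 4.79 CPM in Mouse4.

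**Figure D3:**
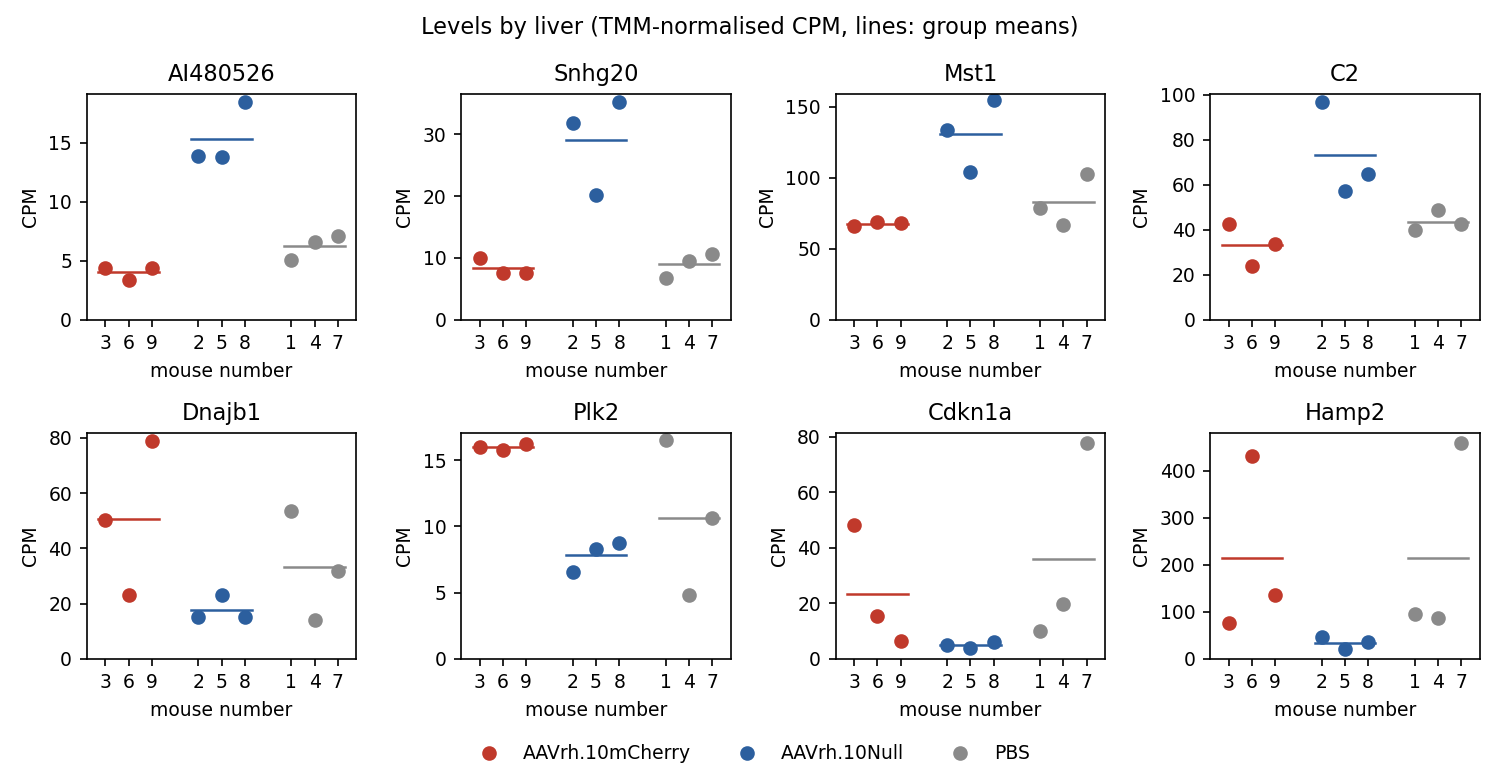
Levels of 8 genes in each of the 9 livers as TMM-normalised CPM, with a line at each group mean. For AI480526, Snhg20, Mst1 and C2 the AAVrh.10Null livers stand above the AAVrh.10mCherry livers, and for Dnajb1, Plk2, Cdkn1a and Hamp2 they stand below them, without overlap in any of the 8.

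Hamp2 had the largest log2 change of the named host genes on the higher side. Hepcidin is the liver hormone that limits iron export, and in mice it comes from Hamp, while the neighbouring copy Hamp2 encodes a related peptide. Hamp2 was at 75.2, 431 and 135 CPM in the AAVrh.10mCherry livers and at 46.3, 21.3 and 35.2 CPM in the AAVrh.10Null livers (log2 change 2.63, SE 0.579). Mouse6 was highest, and the groups did not overlap. The PBS livers were at 96.0, 86.3 and 460 CPM. Hamp was at 565, 871 and 658 CPM against 610, 213 and 813 CPM, so its groups overlapped (log2 change 0.36, SE 0.414). Because the copies are alike, reads may be split between them in a way that the sources used here do not state. The windows of 250 bases before the 2 RefSeq start sites (build GRCm38.p6, both on the minus strand) are shown because they place the 2 copies side by side. They lie at chr7:30944030-30944279 for Hamp and chr7:30924182-30924431 for Hamp2, and 89.7% of aligned positions were identical. Capitals mark the letters GGCGCC of the BMP response element and TTCNNNGAA of the STAT site, searched on both strands.
Hamp: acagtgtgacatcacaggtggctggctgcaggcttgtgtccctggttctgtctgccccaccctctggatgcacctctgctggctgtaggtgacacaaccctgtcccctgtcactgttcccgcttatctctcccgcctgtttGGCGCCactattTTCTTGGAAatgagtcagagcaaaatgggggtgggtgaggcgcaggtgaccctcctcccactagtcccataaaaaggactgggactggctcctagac
Hamp2: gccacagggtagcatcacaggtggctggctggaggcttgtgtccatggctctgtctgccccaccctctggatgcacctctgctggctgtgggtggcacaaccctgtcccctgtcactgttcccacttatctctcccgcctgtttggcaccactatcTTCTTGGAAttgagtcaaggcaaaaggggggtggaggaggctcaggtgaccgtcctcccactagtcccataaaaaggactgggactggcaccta
The Hamp window held 1 match to each motif, and the Hamp2 window held the STAT letters only. Of all 32851 such windows in the RefSeq table, 9.59% held GGCGCC and 7.02% held TTCNNNGAA. A match is a description of letters, and binding was not measured.

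Among the 24 tested genes of hepcidin control and iron handling, 1 was higher (Hamp2) and 5 were lower at unadjusted p under 0.05, and 6 were lower without overlap. The median log2 change was -0.06. Tfr2, the hepatocyte sensor of transferrin-bound iron, was at 95.9, 101 and 122 CPM in the AAVrh.10mCherry livers and at 234, 152 and 216 CPM in the AAVrh.10Null livers. Tmprss6, the protease that restrains hepcidin, was at 110, 93.2 and 159 CPM against 191, 171 and 195 CPM. Slc11a2, a ferrous iron transporter, was at 12.1, 8.15 and 9.70 CPM against 14.5, 13 and 16.4 CPM. In these 3 genes every AAVrh.10mCherry liver was below every AAVrh.10Null liver. Leaving out any 1 liver left 1 to 3 members lower at unadjusted p under 0.05, and library totals left 1. With Mouse5 as the only AAVrh.10Null liver, 0 were lower and 4 were higher.

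Nearly all chaperone genes were above 0 in the comparison of AAVrh.10mCherry with AAVrh.10Null livers. Heat shock proteins and chaperonins fold new or damaged proteins and are induced by heat shock factor 1. Of 32 members tested, 31 had a log2 change above 0, 8 were higher at unadjusted p under 0.05 and 11 were higher without overlap. The median was 0.35, against -0.02 for all genes. Dnajb1, a co-chaperone of the Hsp70 family, was at 50.3, 23.1 and 78.7 CPM in the AAVrh.10mCherry livers and at 15.2, 23 and 15.1 CPM in the AAVrh.10Null livers. Hsph1, a nucleotide exchange factor of Hsp70, was at 53.6, 88.9 and 61.0 CPM against 33.2, 47.5 and 28.1 CPM. Dnajb4, another J-domain co-chaperone, was at 40.5, 56.3 and 78.3 CPM against 21.1, 36.0 and 35.5 CPM. Stip1, which links Hsp70 to Hsp90, was at 78.2, 98.9 and 89.0 CPM against 26.3, 75.5 and 42.2 CPM. In Dnajb1 the groups only just separated, since Mouse6 and Mouse5 were nearly equal. Mouse5 was the AAVrh.10Null liver nearest the other group in all 4 genes. Over all genes, fits without Mouse2, Mouse8 or Mouse5 gave 264, 267 and 634 higher at unadjusted p under 0.05. Of the chaperone genes, leaving out 1 liver at a time gave 3 (without Mouse2 or Mouse8) to 11 (without Mouse5) members higher at that threshold and medians of 0.31 to 0.50. Against Mouse5 alone, 26 of 32 were above 0, 0 had an unadjusted p under 0.05 and the median was 0.23. The PBS livers were on both sides, with Dnajb1 at 53.7 CPM in Mouse1 and 14.2 CPM in Mouse4. The heat shock element letters GAANNTTC read the same on both strands. They stood within 250 bases before a start site in 8 of the 26 members found in the RefSeq table and in 7.73% of all 27025 genes there. Dnajb1, Hsph1, Dnajb4 and Stip1 were not among those 8. Binding was not measured, and the part of these letters in the levels was not tested.

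Immediate early genes and p53 targets were also more often higher than lower. Immediate early genes are switched on within minutes by growth factors or by tissue dissociation. Of 27 tested, 24 were above 0, 6 were higher at unadjusted p under 0.05 and 0 were lower, with a median of 0.39. Btg1, described above, is a member. Fos was at 87.6, 140 and 85.6 CPM in the AAVrh.10mCherry livers and at 15.6, 78.3 and 34.8 CPM in the AAVrh.10Null livers. Fosb was at 3.06, 2.78 and 2.42 CPM against 0.346, 1.5 and 0.822 CPM. Both encode subunits of the AP-1 transcription factor, and neither overlapped between groups, with Mouse2 lowest. The PBS livers spanned 15.2 to 247 CPM for Fos, more than either vector group. Of 22 p53 and DNA damage targets, 17 were above 0, 5 were higher at unadjusted p under 0.05 and 0 were lower, with a median of 0.21. Plk2, described above, is a member. Cdkn1a, the cell cycle inhibitor p21, was at 48.1, 15.6 and 6.39 CPM against 5.01, 4.0 and 5.92 CPM, so that Mouse9 was barely above the AAVrh.10Null livers. Ccng1, a p53-induced cyclin, was at 54.2, 42.0 and 30.4 CPM against 19.5, 30.0 and 21.5 CPM. Bax, a pro-apoptotic membrane protein, was at 19.7, 23.7 and 16.1 CPM against 12.6, 12 and 14.3 CPM. For Cdkn1a and Ccng1 the AAVrh.10mCherry livers stood in the same order as for mCherry itself, with 3 livers and no test. For Plk2 and Bax they did not. The PBS livers of Mouse1, Mouse4 and Mouse7 held 9.86, 19.7 and 77.8 CPM of Cdkn1a, all above every AAVrh.10Null liver. For Ccng1 they held 31.2, 29.5 and 7.07 CPM. Leaving out 1 liver at a time left 3 (without Mouse2) to 8 (without Mouse5) p53 targets and 4 to 9 (without Mouse5) immediate early genes higher at unadjusted p under 0.05. Against Mouse5 alone the numbers were 2 and 4.

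**Figure D4:**
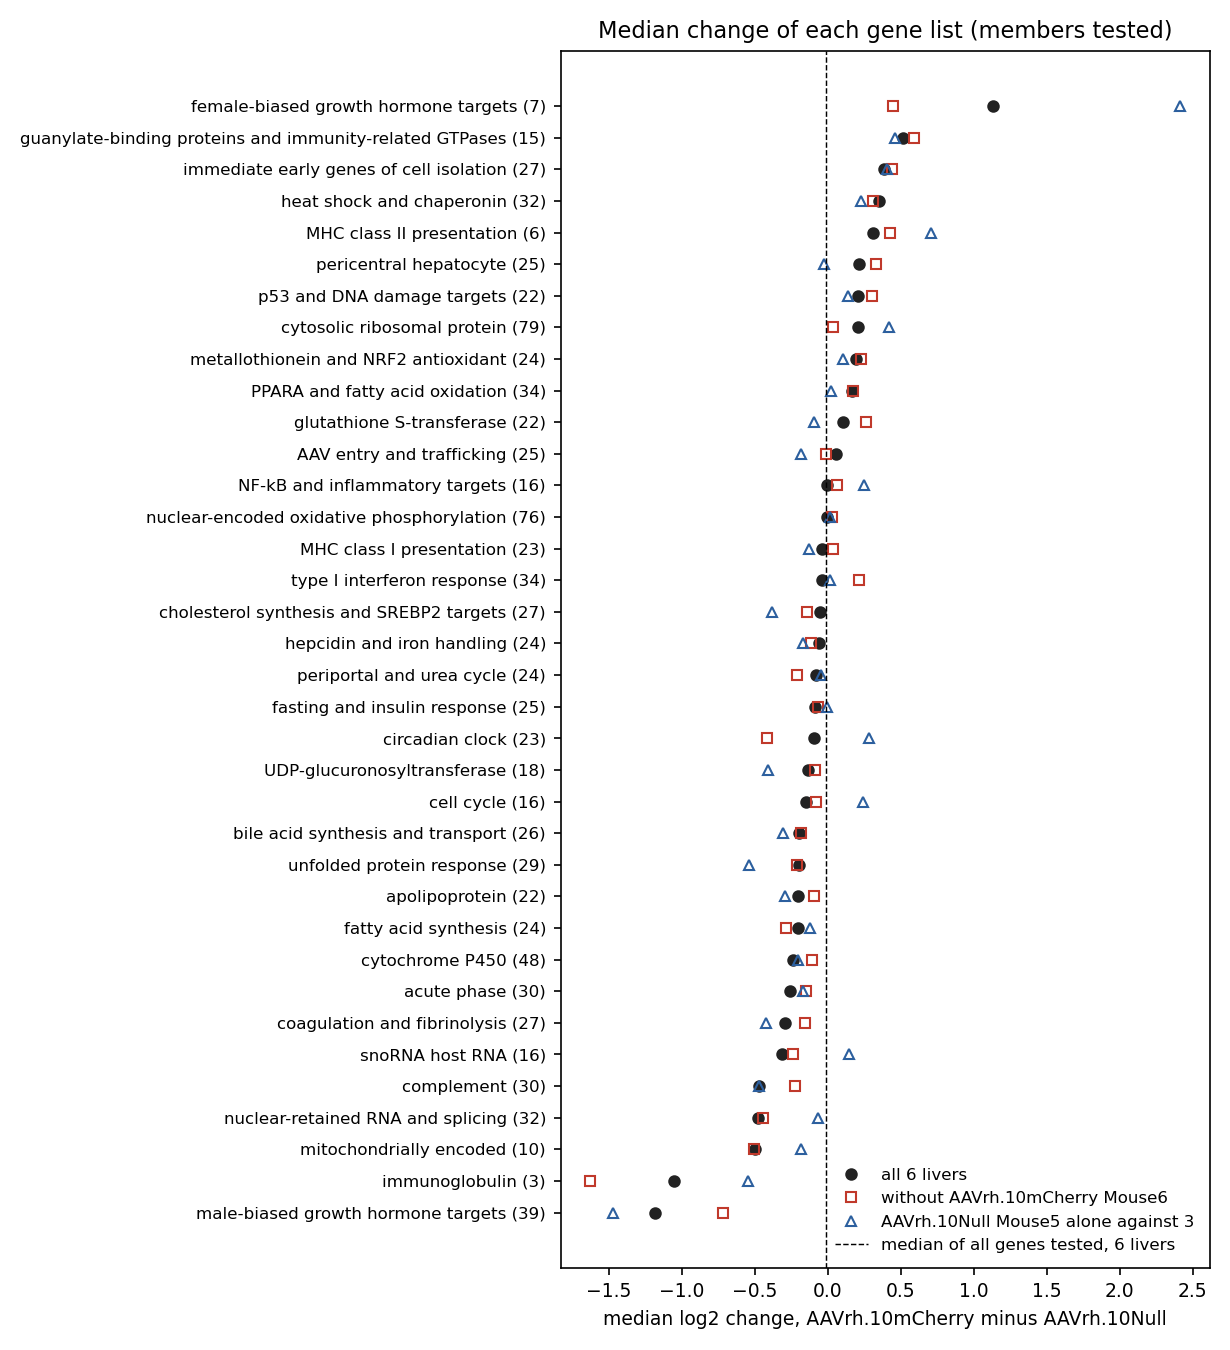
Median log2 change between AAVrh.10mCherry and AAVrh.10Null livers for 36 gene lists, with the number of members tested in brackets. Black points use all 6 livers, red squares leave out Mouse6, blue triangles set Mouse5 alone against the 3 AAVrh.10mCherry livers, and the dashed line is the median of all genes tested. Male-biased growth hormone targets are lowest at -1.19 and female-biased ones highest at 1.13 with all livers.

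Genes driven by male growth hormone pulses had the lowest median, and Mouse6 was lowest by far. Male mice release growth hormone in pulses that act through STAT5B to keep genes such as the major urinary proteins (Mup) high and female-biased genes low. Of 39 male-biased targets tested, 38 were below 0, 7 were lower at unadjusted p under 0.05 and 4 were lower without overlap, with a median of -1.19. Summed over 21 Mup genes, the level was 52532, 5163 and 31426 CPM in the AAVrh.10mCherry livers and 77647, 69923 and 38017 CPM in the AAVrh.10Null livers. The groups overlapped, since Mouse3 was above Mouse8, and Mouse6 held the lowest sum of all 9 livers. The PBS livers were at 59069, 69919 and 26911 CPM. Mup genes are near-identical copies, so levels of single members are uncertain. Relative to the AAVrh.10Null mean, the median of the 39 genes was -0.32 in Mouse3, -4.08 in Mouse6 and -0.69 in Mouse9, and 0.25, 0.35 and -0.73 in Mouse2, Mouse5 and Mouse8 (log2 of CPM + 0.5). Mouse3 and Mouse9 therefore lay within the range of the AAVrh.10Null livers. Without Mouse6 the median log2 change was -0.72, with 12 members lower and 1 higher at unadjusted p under 0.05. Without Mouse3 or Mouse8, 14 members were lower at that threshold, and without Mouse2 or Mouse5 3 were. Igfals, the carrier subunit of insulin-like growth factors, was the member of smallest p, at 53.7, 44.4 and 58.2 CPM against 106, 98.0 and 77.6 CPM.

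Female-biased targets were few in these livers, and only 7 of the 20 listed passed the filter on low counts. That filter asks for a minimum level in several livers, so a gene high in Mouse6 alone was removed. All 7 that passed were above 0, with a median of 1.13, and 1 was higher at unadjusted p under 0.05. Without the filter 18 members were tested and 18 were above 0, with a median of 2.26 and 13 higher at that threshold. That fit gave mCherry an adjusted p of 1.08e-99 in edgeR's test, against 0.466 with the filter. Its p-values are therefore not read as a measure of the spread between livers. Summed over 19 listed members, the level was 114, 889 and 154 CPM against 132, 120 and 108 CPM, so Mouse6 stood apart. The direction of the list is therefore given as values only. Cyp17a1, a steroid hydroxylase, was at 0.510, 56.9 and 5.07 CPM in the AAVrh.10mCherry livers and at 5.19, 3.75 and 3.29 CPM in the AAVrh.10Null livers. Abcd2, a peroxisomal transporter, was at 7.14, 55.2 and 15.8 CPM against 2.07, 3.0 and 16.8 CPM. Cyp2b10, a cytochrome P450 also induced by xenobiotics, was at 8.84, 35 and 9.70 CPM against 7.43, 4.50 and 8.22 CPM. In all 3 the high value was that of Mouse6. Without that liver, 4 of 7 members were above 0, the median was 0.45 and the sign of Cyp17a1 turned (log2 change -0.45).

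**Figure D5:**
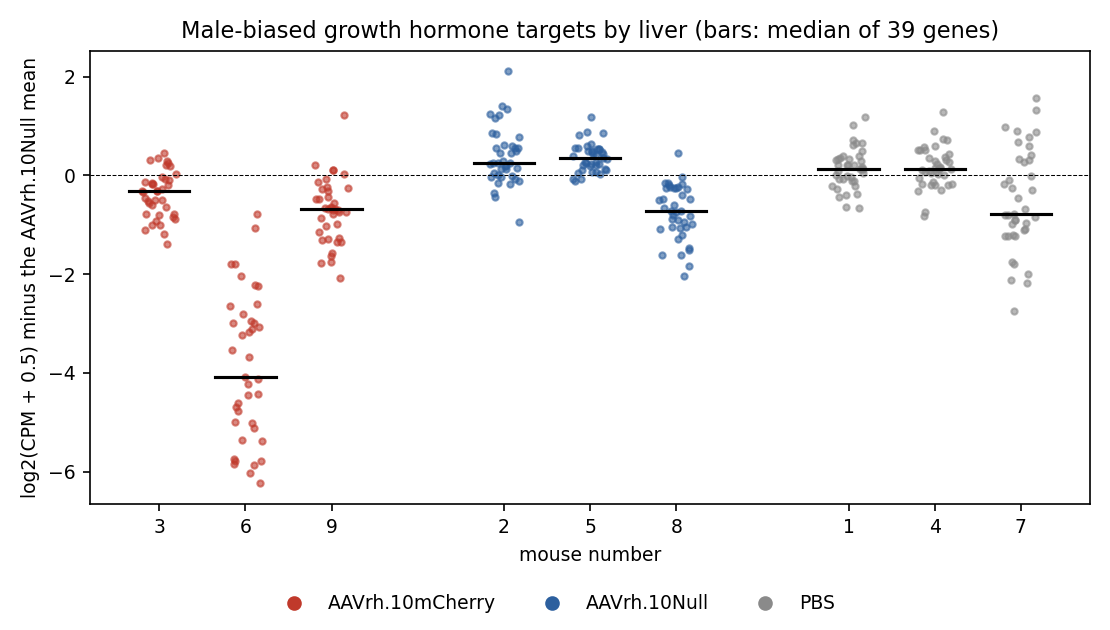
Levels of 39 male-biased growth hormone targets in each liver, as log2 of CPM + 0.5 minus the mean of the AAVrh.10Null livers, with 1 point per gene and a bar at the median. The median is -4.08 in Mouse6 and between -0.78 and 0.35 in the other 8 livers.

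Plasma protein genes of the complement and coagulation cascades were mostly below 0. Complement proteins, made largely by hepatocytes, tag microbes and immune complexes and can be activated by AAV capsids. Of 30 tested, 27 were below 0, 5 were lower and 2 higher at unadjusted p under 0.05, and 7 were lower without overlap, with a median of -0.47. C2, the protease of the classical and lectin C3 convertase, was at 42.5, 23.7 and 33.7 CPM in the AAVrh.10mCherry livers and at 96.8, 57.3 and 64.9 CPM in the AAVrh.10Null livers. C4b, its partner in that convertase, was at 219, 178 and 236 CPM against 497, 306 and 443 CPM. The near-identical copy C4a was at 16.5, 7.22 and 10.1 CPM against 55.7, 31.3 and 24.8 CPM, and the split of reads between C4a and C4b is uncertain. C1s1, a protease of the C1 complex, was at 141, 95.6 and 125 CPM against 221, 182 and 183 CPM. Mbl2, the lectin that opens the lectin pathway, stood on the other side at 1041, 1228 and 777 CPM against 396, 704 and 578 CPM. For these 5 genes the groups did not overlap. In the PBS livers C2 was at 39.7, 48.7 and 42.4 CPM, below every AAVrh.10Null liver. Without Mouse6, 24 of 30 members were below 0, 5 were lower at unadjusted p under 0.05 and the median was -0.22. Without Mouse3, 10 were lower, and without Mouse8, 3. Against Mouse5 alone 23 were below 0, 1 was lower at that threshold and the median was -0.47.

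Of 27 coagulation and fibrinolysis genes, 20 were below 0, 6 were lower at unadjusted p under 0.05, 1 was higher, and 9 were lower without overlap, with a median of -0.29. F2, prothrombin, was at 783, 660 and 790 CPM in the AAVrh.10mCherry livers and at 1239, 1125 and 1079 CPM in the AAVrh.10Null livers. F12, the starter of the contact pathway, was at 183, 144 and 171 CPM against 265, 268 and 237 CPM. Klkb1, plasma prekallikrein, was at 153, 114 and 140 CPM against 282, 177 and 183 CPM. Serpind1, the thrombin inhibitor heparin cofactor II, was at 148, 129 and 147 CPM against 227, 189 and 189 CPM. Mouse6 was the lowest liver in all 4 genes, and the groups did not overlap. Without Mouse2, Mouse6 or Mouse9, 2 of 27 members were lower at unadjusted p under 0.05, and without Mouse5, 4. The median without Mouse6 was -0.16, and library totals left 2 members lower.

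Genes of the unfolded protein response were more often below than above 0, and those of MHC class I presentation were spread over both sides. The unfolded protein response raises chaperones and degradation factors of the endoplasmic reticulum when proteins misfold there. Of 29 members, 20 were below 0, 8 were lower at unadjusted p under 0.05 and 0 were higher, with 5 lower without overlap and a median of -0.20. Herpud1, a factor of endoplasmic reticulum-associated degradation, was at 186, 153 and 183 CPM in the AAVrh.10mCherry livers and at 239, 281 and 271 CPM in the AAVrh.10Null livers. Sel1l, the adaptor of the degradation ligase, was at 71.9, 75.7 and 72.3 CPM against 111, 112 and 86.1 CPM. Neither gene overlapped between groups, and Mouse6 was lowest for Herpud1 but highest among the AAVrh.10mCherry livers for Sel1l. Leaving out 1 liver at a time left 1 (without Mouse9) to 6 (without Mouse8) members lower at unadjusted p under 0.05, and library totals left 1. Against Mouse5 alone 5 of 30 were lower, with a median of -0.54. Of 23 genes of MHC class I presentation, 10 were above 0 and 13 below, 3 were lower and 1 higher at unadjusted p under 0.05, and the median was -0.04. H2-K1, a classical class I heavy chain, was at 723, 532 and 705 CPM against 1136, 913 and 898 CPM. H2-Q4, a nonclassical one, was at 9.35, 11.3 and 7.94 CPM against 6.74, 5.25 and 5.75 CPM. H2 genes are close copies of each other, so their levels are uncertain.

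Interferon-stimulated genes gave no difference at unadjusted p under 0.05. Type I interferon is the first antiviral signal of infected cells, and its targets are a usual readout of vector sensing. Of 34 tested, 15 were above 0 and 19 below, 0 reached an unadjusted p under 0.05 in either direction, and the median was -0.04. Isg15, a ubiquitin-like modifier, was at 11.1, 6.67 and 11.6 CPM in the AAVrh.10mCherry livers and at 6.91, 6.25 and 6.25 CPM in the AAVrh.10Null livers. Stat2, a factor of the interferon receptor pathway, was at 41.8, 60.9 and 61.4 CPM against 78.1, 70.3 and 73.3 CPM. The groups overlapped for Isg15 and not for Stat2. The per-liver median relative to the AAVrh.10Null mean was 0.49, -0.64 and -0.08 in Mouse3, Mouse6 and Mouse9. Without Mouse6 the list's median was 0.21, with 2 members higher and 0 lower at that threshold, and without Mouse3 it was -0.31, with 7 members lower. Guanylate-binding proteins and immunity-related GTPases, the cell-autonomous defence proteins raised mainly by interferon gamma, were more often higher. Of 15 tested, 11 were above 0, 4 were higher at unadjusted p under 0.05 and 0 were lower, with a median of 0.52. Gbp2 was at 3.91, 5.56 and 4.08 CPM against 1.04, 2.25 and 1.48 CPM, and Gbp9 at 3.57, 3.89 and 3.09 CPM against 1.21, 2.50 and 1.48 CPM. Neither overlapped between groups, though these levels rest on few UMIs. PBS livers reached 7.58 CPM for Gbp2, above both vector groups. Without Mouse2 or Mouse6, 6 of the list were higher at unadjusted p under 0.05, without Mouse8 2, and without Mouse3 1, where the median was 0.10. Against Mouse5 alone 1 of 16 was higher.

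Host genes of AAV entry and trafficking, which cover receptors, endosomal transport and nuclear import, showed no common direction. Of 25 tested, 13 were above 0 and 12 below, 2 were higher and 1 lower at unadjusted p under 0.05, and the median was 0.06. Kpna2, an importin that carries cargo into the nucleus, was at 9.52, 11.9 and 9.26 CPM in the AAVrh.10mCherry livers and at 6.22, 6.50 and 5.42 CPM in the AAVrh.10Null livers, without overlap. Egfr, a growth factor receptor whose kinase activity affects AAV trafficking, was at 177, 85.6 and 225 CPM against 346, 645 and 200 CPM, and its groups overlapped. Without Mouse5, 6 members of the list were higher at that threshold. Of 30 acute phase genes, 23 were below 0 and 7 above, with a median of -0.26. At unadjusted p under 0.05, 4 were higher and 2 lower, whereas 0 were higher and 4 lower without overlap. The 2 members of smallest p were on the higher side. Mt2, a metal-binding metallothionein, was at 9.35, 64.6 and 72.2 CPM against 9.16, 5.0 and 17.3 CPM. Orm3, an orosomucoid, was at 4.59, 16.5 and 6.17 CPM against 5.01, 1.75 and 2.30 CPM. In both genes Mouse3 lay within the range of the AAVrh.10Null livers.

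Cytochrome P450 genes were found on both sides. These enzymes oxidise steroids, fatty acids and drugs, and several Cyp2c members are enriched near the central vein. Of 48 tested, 19 were above 0 and 29 below, with a median of -0.24. Of these, 8 were higher and 6 lower at unadjusted p under 0.05, and 3 were higher and 9 lower without overlap. Cyp2c38 was at 11.1, 37.6 and 29.2 CPM in the AAVrh.10mCherry livers and at 2.94, 10.8 and 8.22 CPM in the AAVrh.10Null livers. Cyp4f15, a fatty acid hydroxylase, was at 60.5, 61.3 and 55.2 CPM against 123, 85.3 and 116 CPM. Both were without overlap, Cyp2c38 with Mouse3 next to Mouse5. Of 25 pericentral hepatocyte genes, 6 were higher at unadjusted p under 0.05, 0 were lower and 3 were higher without overlap, with a median of 0.21. The members of smallest p were Cyp2c54, Cyp2c37, Cyp2c29 and Cyp2c50, whose groups all overlapped and which are close copies. Cyp2c29 was at 1960, 2871 and 3014 CPM against 899, 1968 and 1159 CPM, with Mouse5 above Mouse3. Without Mouse2, Mouse8 or Mouse9, 2 pericentral members were higher at unadjusted p under 0.05. Against Mouse5 alone, the pericentral median was -0.03 and 0 members were higher at that threshold. Of 24 periportal and urea cycle genes, 10 were above 0 and 14 below, and 1 reached an unadjusted p under 0.05, against 4 without Mouse6.

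Most genes of fatty acid synthesis and bile acid handling were below 0, with few members at unadjusted p under 0.05. Mlxipl, the carbohydrate-responsive regulator ChREBP, was at 215, 204 and 255 CPM in the AAVrh.10mCherry livers and at 407, 381 and 560 CPM in the AAVrh.10Null livers (log2 change -1.0, SE 0.228). Of 24 fatty acid synthesis genes, 19 were below 0, 2 were lower at unadjusted p under 0.05 and the median was -0.20, with 5 lower without Mouse5. In bile acid handling, Slc27a5, the ligase that activates bile acids, was at 325, 310 and 387 CPM against 601, 516 and 537 CPM. Abcb11, the canalicular bile salt export pump, was at 219, 206 and 242 CPM against 338, 335 and 287 CPM. Both were without overlap, and of the 26 members of that list 20 were below 0, 3 were lower and 1 higher at unadjusted p under 0.05, with a median of -0.20. Acadm, the medium-chain acyl-CoA dehydrogenase, was at 470, 595 and 545 CPM against 241, 408 and 374 CPM. It was 1 of 3 members higher at that threshold among 34 PPARA and fatty acid oxidation genes, where 1 was lower. Insr, the insulin receptor, was at 53.4, 54.3 and 56.3 CPM against 84.4, 72.0 and 71.5 CPM. Nr1d1, the clock repressor REV-ERB alpha, was at 29.2, 28.9 and 26.3 CPM against 38.9, 47.5 and 53.7 CPM. It was 1 of 23 clock genes and the only member at unadjusted p under 0.05, where leaving out Mouse6 gave 6 lower. Neither it nor Insr overlapped between groups. In the lists not described so far, members higher and lower at that threshold numbered 3 and 1 of 18 on the UDP-glucuronosyltransferase list and 2 and 2 of 22 glutathione S-transferases. They numbered 1 and 1 of 24 antioxidant genes and 0 and 1 of 22 on the apolipoprotein list. Ugp2 was 1 of the 3 higher on the first list, and Angptl4 was the 1 lower on the last. Neither gene belongs to the family that names its list. Of the antioxidant genes 19 were above 0 (median 0.19), and on the apolipoprotein list 17 were below 0 (median -0.20). Members higher and lower numbered 0 and 1 of 27 cholesterol synthesis genes, 1 and 2 of 25 fasting genes and 0 and 1 of 16 cell cycle genes. They numbered 1 and 0 of 16 NF-kB targets and 0 and 0 of 6 MHC class II genes, whose median was 0.31.

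Nuclear and noncoding RNAs were mostly lower in the AAVrh.10mCherry livers, in which Malat1 and the barcode endings described above also differed from Mouse2 and Mouse8. Nuclear-retained transcripts are kept from export to the cytoplasm, many of them near splicing speckles. Of 32 nuclear-retained and splicing transcripts, 29 were below 0, 7 were lower at unadjusted p under 0.05 and 8 were lower without overlap, with a median of -0.48. Ccnl2, a cyclin of splicing speckles, was at 106, 111 and 140 CPM in the AAVrh.10mCherry livers and at 178, 176 and 247 CPM in the AAVrh.10Null livers. Clk4, a kinase of splicing factors, was at 32.0, 38.5 and 40.5 CPM against 62.8, 48.5 and 76.1 CPM. Neither overlapped between groups, and Mlxipl is also on this list. Without Mouse5 or Mouse6, 15 and 12 members were lower at unadjusted p under 0.05, and without Mouse3 or Mouse8, 4. Against Mouse5 alone, which like the AAVrh.10mCherry livers had little Malat1 and many barcodes ending in an undetermined base, 21 of 32 members were below 0, 1 was lower at unadjusted p under 0.05 and the median was -0.06. The list of small nucleolar RNA host genes also counts AI480526, and whether AI480526 hosts such an RNA was not examined. Of the 16 members tested, 14 were below 0 and 3 were lower at unadjusted p under 0.05, AI480526, Snhg20 and Snhg17. Without Mouse5, 8 were lower at that threshold. The median of the list was -0.31, and 0.14 against Mouse5 alone. Even so, Snhg20 in Mouse5, at 20.3 CPM, was above every AAVrh.10mCherry liver. The part of these library differences in the other results was not tested.

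Ribosomal protein and mitochondrial genes held few members that separated the groups. Of 79 cytosolic ribosomal protein genes, 70 were above 0 with a median of 0.21, but 1 was higher at unadjusted p under 0.05 (Rps6) and 4 were higher without overlap. Without Mouse6, 48 of 79 were above 0 and the median was 0.04, whereas without Mouse8 79 were above 0 and the median was 0.46. Of 76 nuclear-encoded oxidative phosphorylation genes, 36 were above 0 and 40 below, and 0 reached that threshold. Of 10 mitochondrially encoded transcripts, 7 were below 0 with a median of -0.50. As a share of UMIs, mitochondrially encoded RNA nevertheless averaged 11.4% in both groups. mt-Cytb was the 1 member lower at unadjusted p under 0.05, at 5835, 5575 and 11303 CPM in the AAVrh.10mCherry livers and at 11604, 12011 and 19978 CPM in the AAVrh.10Null livers. Mouse9 and Mouse2 were nearly equal for mt-Cytb, and without Mouse8 the median of the list was 0.04.

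Summed markers of other liver cells overlapped between the groups, except those of B cells. In sums over dissociated liver, fewer cells of a type and less RNA per cell cannot be told apart. The 8 hepatocyte markers summed to 94537 to 138001 CPM in the AAVrh.10mCherry livers and to 108709 to 135362 CPM in the AAVrh.10Null livers, so the defining markers of the labelled tissue were abundant in every liver. The 8 sinusoidal endothelial markers summed to 129, 370 and 162 CPM against 221, 69.0 and 114 CPM, with Mouse6 highest. All 8 were above 0 with a median log2 change of 0.79, and 1, Pecam1, was higher at unadjusted p under 0.05. The 8 Kupffer cell and macrophage markers summed to 106, 29.3 and 42.0 CPM against 109, 65.3 and 68.0 CPM, with Mouse6 lowest. Of these, 7 were below 0 with a median of -0.47, and 0 reached that threshold. Stellate cell and fibroblast markers summed to 149, 189 and 106 CPM against 137, 108 and 59.0 CPM, and all 6 tested were above 0 with a median of 0.53. Hgf, the hepatocyte growth factor, was at 5.44, 16.7 and 5.40 CPM against 3.28, 3.50 and 1.31 CPM, without overlap. T and NK cell markers summed to 28.7, 28.0 and 12.1 CPM against 23.2, 10.3 and 14.8 CPM, with 3 of 4 tested above 0. Among them Gzma, a granule protease, was at 11.4, 3.52 and 3.09 CPM against 2.07, 3.0 and 0.986 CPM, also without overlap. The 8 B cell markers summed to 3.06, 2.22 and 3.86 CPM against 10.2, 4.75 and 8.22 CPM, the only list of 12 without overlap. Its exact permutation p was 0.1, the smallest possible and not adjusted for the 12 lists. None of the 8 markers passed the filter on low counts. All 4 plasma cell markers tested were below 0 and 2 of them, Igkc and Ighm, were lower at unadjusted p under 0.05. Red cell markers ranged from 66.2 CPM in Mouse8 to 2423 CPM in Mouse2, a range within the AAVrh.10Null livers that covered all AAVrh.10mCherry livers. Neutrophil markers did not exceed 0.926 CPM in any of the 6 livers, with Cxcr2 at 0 UMIs in all of them, and the platelet gene Ppbp was also at 0. The part of RNA from these other cells in the results was not tested.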

How the data were processed

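Single-cell transcript counts of 9 livers, 1 per mouse, were used, and each mouse was taken as a separate replicate of the treatment in its label. The deposited files hold raw counts of UMIs per gene and barcode, without scaling by the authors as far as the values show. Drop-seq is the capture method named in the labels' protocols. Per the submitters' processing notes, the build was mm10 and Seurat was used, with no version. The aligner, annotation, strand setting, barcode selection and doublet treatment are not given in the sources used here. No barcode was removed as a doublet.

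Counts of barcodes with at least 200 genes were summed per liver and tested in R 4.3.3 with edgeR 4.0.16 (TMM, filterByExpr, quasi-likelihood), group as the only term, on the 6 vector livers. Benjamini-Hochberg adjusted p-values over 10924 genes were called at 0.05. PBS levels were scaled on the same reference. mCherry is absent from some files and was taken as 0 there. DESeq2 1.42.0 and limma 3.58.1 were alternatives. Exact permutation tests over livers were two-sided. Poisson intervals and the floor of 3 UMIs cover counting error only. The test was checked on simulated data.

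The lists and the genes named were chosen with earlier results of these data known: mCherry, Igkv3-12, genes past the threshold, otherwise the 10 of smallest p per direction, and up to 4 members of smallest p per list. Hamp, Igkc and Jchain were added as partners of named genes after their values were seen. Positions are from GENCODE M21 and promoter windows from RefSeq. Python 3.11.15 and matplotlib 3.10.9 drew the figures.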

Additional observations from a re-analysis of the deposited data

Results flagged for a closer look

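mCherry was found in a liver that had received no vector. The PBS liver of Mouse1 held 273 mCherry UMIs, or 26.6 CPM, in 238 of its barcodes, while the other PBS livers held 0. PBS livers did not enter the comparison, and a level of 3 UMIs would be 0.293 CPM in that library. The value is close to the 24 CPM of the AAVrh.10Null liver of Mouse5, and the source of either was not tested.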

How the results depend on the processing

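No paired or blocked analysis was made, because the labels name no pairs or blocks. By mouse number the labels run PBS, AAVrh.10Null, AAVrh.10mCherry in a repeating order, and any effect of that order was not tested. Across 21 alternatives, DESeq2 called 8 genes higher and 19 lower, and testing every gene with a UMI called 111 higher and 154 lower (at unadjusted p, 817 and 1040). Testing every gene gave mCherry an adjusted p of 1.08e-99 in edgeR's test, so these counts are not read as a measure of the spread between livers. All 9 livers in 1 fit called 3 lower, as did a minimum of 500 genes. Library totals, limma-voom, a robust spread estimate and Mouse5 alone called 0 lower, with Igkv3-12 at -7.90 (adjusted p = 0.0577), -9.73 (0.0820), -8.05 (0.442) and -8.37 (0.911). At unadjusted p, library totals gave 788 higher and 304 lower, and Mouse5 alone 193 and 143. mCherry passed with DESeq2 (9.34) and without the low-count filter (9.43). Leaving out each liver gave 0 to 1 called higher, 0 to 1 called lower, 245 to 634 higher and 400 to 884 lower at unadjusted p, mCherry at 8.78 to 15.61 and Igkv3-12 at -13.36 to -7.28; where 1 liver decided a value, the cause was not tested. In that series Cyp17a1 ranged from -0.45 (without Mouse6) to 2.91 and Hamp from -0.026 (without Mouse5) to 0.78, so both turned sign. Other named genes kept their direction. Where 2 livers remained, or Mouse5 stood alone, they were assumed to vary like the others. With 3 livers a group, small changes could not be detected.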
